A study of Mus musculus with 24 samples.

Results

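BURP-17BaSq is 1 of 6 basal/squamous (Ba/Sq) lines among the 8 BBN-induced Urothelium Roswell Park (BURP) bladder tumor lines, and its 3 tumors were set against the 15 tumors of the other 5 Ba/Sq lines, 18 of the 24 tumors in the series. The members were taken from the sample labels alone: all tumors labelled BBN017 on one side, and on the other the 3 tumors each of BURP-12BaSq, BURP-18BaSq, BURP-21BaSq, BURP-24BaSq and BURP-25BaSq. Each line was started from the bladder tumor of 1 C57BL/6NTac mouse that drank water with 0.1% N-butyl-N-(4-hydroxybutyl)-nitrosamine (BBN), a bladder carcinogen, from 8 weeks of age for up to 36 weeks. Tumors were then passaged under the skin of hosts of the same strain and sex with intact immunity. BURP-17BaSq had a male donor, as had BURP-12BaSq and BURP-18BaSq, and the other 3 lines had female donors. The BURP-17BaSq tumors are named C152-M1, C165-M30 and P4, and only the name of the last gives its passage. The study counts the first passage as P0. A line stands for 1 donor, so what sets BURP-17BaSq apart is a property of 1 carcinogen-induced tumor and its descendants, and the 3 tumors are replicates of that line and not of a kind of tumor.

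Basal and squamous bladder cancers resemble the bottom layer of a stratified epithelium. They make the keratins Krt5 and Krt14 under the transcription factor p63, and patches of them cornify as skin does. The luminal kind of urothelium instead makes uroplakins and Krt20. Grafts under the skin also hold host fibroblasts, vessels, fat and leukocytes, and the RNA of a bulk tumor is a mixture of all of these. Fewer cells of a type and less RNA per cell cannot be told apart in such samples.

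Levels are given as CPM, the counts of a gene scaled to a common library size after TMM normalization, and a gene was called when edgeR's quasi-likelihood test over the 18 tumors gave a Benjamini-Hochberg adjusted p under 0.05 and at least a 2-fold difference. Total counts were 25370320, 11943075 and 18749226 in C152-M1, C165-M30 and P4, and ran from 9295708 to 23680925 in the other 15. A count of 3, taken as the smallest level a library can show, was worth 0.114, 0.248 and 0.146 CPM in the 3 tumors. In the other tumors it was worth 0.105 to 0.409 CPM except in C102-M30 of BURP-25BaSq, where 61.9% of the counts fell on the noncoding gene CT010467.1 and 3 counts were worth 1.33 CPM. C102-M1 of BURP-25BaSq stood apart from the other tumors of its line, with Pearson's r of 0.766 and 0.751 over 9729 genes, against 0.919 to 0.958 with the 3 tumors of BURP-21BaSq. Its label is therefore in doubt. It was kept as labelled, which leaves the 15 tumors the same but bears on every fit that uses the lines. These floors cover counting error only.

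Of 20523 genes tested, 156 were called higher in BURP-17BaSq, 0.76% of the genes, and 64 were called lower, 0.312%. Which of these hold in every tumor of the line was asked separately. All 3 tumors lay above all 15 others for 284 genes, 1.38% of those tested, and below all 15 for 200 genes, 0.975%. Both conditions, a call and no overlap between the groups, were met by 84 higher genes, 74 of them protein-coding, and by 46 lower genes, 40 of them protein-coding. The other 72 higher and 18 lower calls rested on tumors that overlap. Without C102-M30 the calls numbered 143 and 83, and without C102-M1 108 and 48.

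The 3 tumors of the line contributed unequally to these calls. Without C152-M1 61 genes were called higher and 14 lower. Without C165-M30 the numbers were 159 and 18, and without P4 50 and 4. Among the 156 and 64 genes, 21 higher and 3 lower were called in each of these 3 reduced fits, and 20 and 3 of them also in each fit that left out 1 of the other 5 lines. The 20 were Krt90, Tex14, Muc19, Mmp7, Capn11, AI481877, Gria4, Gm12606, Gm10482, Gm2115, Myo5c, Spns3, Shf, Serinc3, Gdpd5, Gde1, Ctsc, Ptprj, Il20rb and Slc25a30, and the 3 were Rnf43, Ppp3cb and Trmt2b. All 23 were also free of overlap.

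The unit of replication decided most of the rest. With counts summed per line, so that 1 value of BURP-17BaSq faced 5 values, edgeR called no gene in either direction. With limma-voom and the line as a random effect, whose correlation within a line was 0.483, 12 genes were called higher and none lower. At an unadjusted p under 0.05 this fit held 761 higher and 272 lower genes, 1033 of 20523 tested. That is near the share of 0.05 which falls there when no gene differs. Of the 12, 9 were among the 84: Krt90, Tex14, Gm12606, Gm10482, Gm2115, Capn11, Gdpd5, Pcdhga10 and Ccdc114. Without C102-M1 the summed counts again gave no call, and the random effect gave 7 higher and none lower. Of these 7, Krt90, Tex14, Gm12606, Gdpd5 and Pcdhga10 were among the 84. The p-values over tumors given below therefore measure how far 3 tumors of 1 line stand from 15 tumors of 5 lines, and tumors of a line are alike. The plot of called genes by setting shows how far the counts moved.

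**Figure D1:**
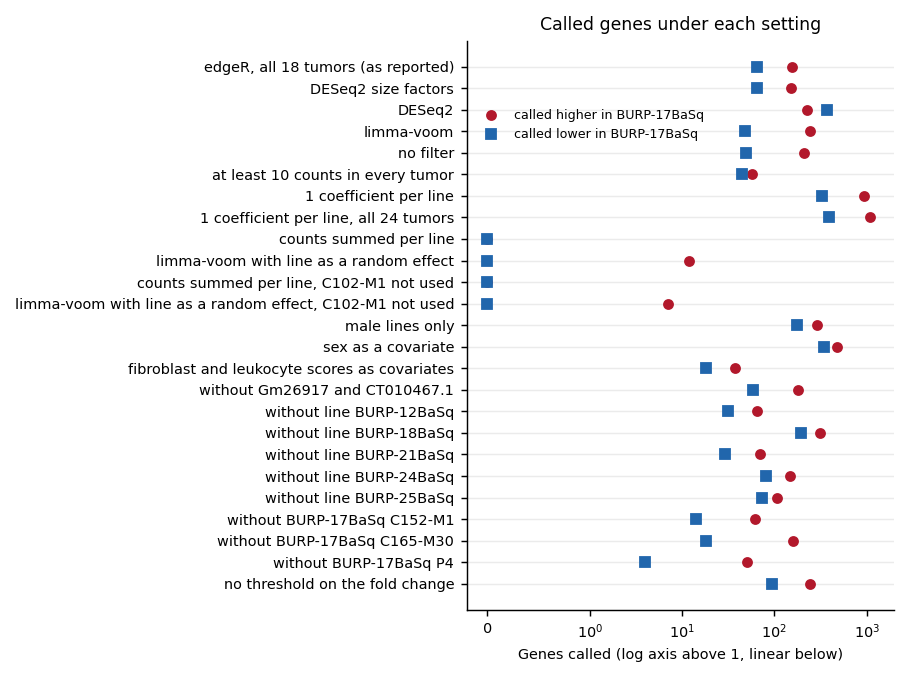
Number of genes called higher (red circles) and lower (blue squares) in BURP-17BaSq under each setting, on an axis that is logarithmic above 1 and linear below. The counts ran from 0 in both directions with counts summed per line, where the square covers the circle, to 1077 and 389 with 1 coefficient per line over all 24 tumors, against 156 and 64 as reported.

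Krt90, a type II keratin gene on the minus strand of chromosome 15 (GRCm38, 101552356 to 101562950), showed the largest difference. It stood at 415, 369 and 1271 CPM in C152-M1, C165-M30 and P4. In the 15 other tumors its lowest, median and highest levels were 0, 1.6 and 11.8 CPM, so the groups lay far apart. The log2 difference was 7.62 (SE 0.73, adjusted p = 4.33e-05), and it was called in 35 of 37 alternative fits, the exceptions being the counts summed per line with and without C102-M1 (adjusted p up to 0.843). Krt42, a type I keratin gene, was also called higher but not in all 3 tumors, with 60.8, 14.6 and 35.5 CPM against a range up to 15.3 CPM. Krt5, the basal keratin stained in these lines, was not called: it stood at 3300 CPM in C152-M1, 4948 in C165-M30 and 4199 in P4, inside the range of 2908 to 5953 CPM of the others.

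Tex14, which encodes a protein of the intercellular bridges of germ cells, and Mmp7, which encodes the protease matrilysin, followed. Tex14 reached 5.87, 10 and 16.8 CPM against a median of 0.175 and a highest value of 1.77 CPM (log2 difference 5.35, SE 0.54, adjusted p = 4.33e-05). Mmp7 reached 4.39, 4.63 and 1.07 CPM, while its median in the other tumors was 0 and its highest value 0.698 CPM. Muc19, a gel-forming mucin gene annotated here as a processed transcript, stood at 2.31, 2.4 and 14.7 CPM against at most 0.442 CPM. All 4 genes were low or absent elsewhere in the Ba/Sq lines and higher in all 3 tumors of this one. For Mmp7 the margin was narrow in P4, which had 22 counts against at most 17 in any of the others.

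The stretches just before the starts of Krt90 and Tex14 are shown because these 2 genes were called in 35 of the 37 alternative fits each. The sequences are RefSeq promoter windows on GRCm38.p6, 250 bases long and written 5′ to 3′ on the strand of the gene. Krt90 lies at chr15:101562951-101563200 (minus strand) and Tex14 at chr11:87404815-87405064 (plus strand).
Krt90: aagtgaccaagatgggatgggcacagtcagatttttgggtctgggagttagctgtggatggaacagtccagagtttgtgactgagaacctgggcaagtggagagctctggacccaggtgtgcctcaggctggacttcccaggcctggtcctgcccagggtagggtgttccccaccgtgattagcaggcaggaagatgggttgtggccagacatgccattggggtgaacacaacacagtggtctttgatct
Tex14: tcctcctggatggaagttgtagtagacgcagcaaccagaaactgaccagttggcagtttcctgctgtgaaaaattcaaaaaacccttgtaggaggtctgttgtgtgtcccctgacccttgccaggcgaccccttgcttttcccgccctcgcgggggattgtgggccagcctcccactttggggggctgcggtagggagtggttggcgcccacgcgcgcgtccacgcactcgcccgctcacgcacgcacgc
No letters are in capitals because none of the 4 motifs searched on both strands occurs in either window, including the 50 bases after the start. Of the 84 higher genes 55 matched the promoter table, and of the 46 lower genes 31. The core of the interferon-stimulated response element, GAAANNGAA, was in 3.64% of the promoters of the higher genes and 9.68% of those of the lower genes, against 8.91% of 12456 genes tested. For the AP-1 letters TGANTCA the shares were 5.45%, 12.9% and 7.15%, for the E-box CACGTG 7.27%, 3.23% and 10.9%, and for the TATA letters TATAAA 9.09%, 9.68% and 9.99%. With so few promoters these shares are a description only.

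The other protein-coding genes with the largest differences without overlap included a receptor subunit, a protease and an adhesion molecule. Gria4, a subunit of AMPA glutamate receptors, stood at 1.85, 0.662 and 1.8 CPM against at most 0.264 CPM. Capn11, a calpain protease of the testis, stood at 1.29, 1.9 and 1.7 CPM against at most 0.244 CPM. Pcdhga10, a gamma protocadherin, stood at 7.53, 6.95 and 6.36 CPM and had a median of 0 in the others, but its call was lost when any of the 3 tumors was left out. Its exons are partly shared within the gene cluster, so the division of reads among members is uncertain. Each of these was even across the 3 tumors to within a factor of 3.

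Aoc1, which oxidises histamine and other diamines, stood at 9.61, 6.12 and 26.1 CPM against at most 2.76 CPM. Dpep1, a dipeptidase of the cell surface, stood at 16.2, 4.38 and 9.18 CPM, and its lowest value was just above the highest of the others, 4.34 CPM. Both calls were lost when any of the 3 tumors was left out. Colca2 (3.44, 0.744 and 4.32 CPM), Ankdd1b (3.44, 12 and 5 CPM) and AI481877 (1.78, 5.38 and 1.26 CPM) stood above highest values of 0.733, 1.46 and 0.342 CPM. Colca2 in C165-M30 cleared the others by a narrow margin.

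Several of the genes lower in BURP-17BaSq were at the edge of detection there. Atp13a4, a P-type ATPase gene, and Ddx43, a helicase gene, had no count in any of the 3 tumors. Against a floor of 3 counts in the shallowest library of the line they were at least 4.9-fold and 2.67-fold lower than the mean of the others. In the other 15 tumors Atp13a4 ran from 0.212 to 4.9 CPM and Ddx43 from 0.164 to 2.56 CPM. Both lowest levels were under the floor of C165-M30, 0.248 CPM. Fcgbp, which encodes a mucus protein, stood at 0.151, 0 and 0.0486 CPM against 0.733 to 20.3 CPM.

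Rnf43 and 2 Frizzled genes were among the 12 protein-coding genes with the largest decrease. Rnf43 is a ubiquitin ligase that removes Frizzled receptors from the cell surface and so damps Wnt signalling. It stood at 0.265, 0.414 and 0.292 CPM, and its lowest, median and highest levels elsewhere were 5.46, 14.6 and 43.2 CPM (log2 difference -5.79, SE 0.72, adjusted p = 0.000794). The call held when each of the 18 tumors was left out. Fzd10 stood at 0.227, 0.165 and 0 CPM against 0.904 to 27.9 CPM, and Fzd3 at 2.04, 0.579 and 0.583 CPM against 3.59 to 35.4 CPM. Both of these calls were lost when any tumor of the line was left out.

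A list of 26 Wnt ligands, regulators and targets holds no Frizzled gene and not Sfrp4, so the called genes Fzd10, Fzd3 and Sfrp4 are not counted in it. Of 24 tested, only Wnt11, a ligand, was called higher (21, 8.02 and 20.3 CPM against 0.442 to 8.32 CPM, overlapping in C165-M30), and only Rnf43 lower. The median log2 difference of the list was -0.13, beside -0.06 over all genes tested. Axin2, a feedback target of the pathway, was at 13.9, 7.44 and 15 CPM, inside the range of 3.1 to 21.7 CPM. Znrf3, the closest relative of Rnf43, was at 30, 54 and 43.7 CPM, inside 24.4 to 54.4 CPM.

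Tex14 and Rnf43, opposite in direction, are near neighbours on chromosome 11. Both lie on the plus strand, Tex14 from 87405065 to 87555823 and Rnf43 from 87662722 to 87735539. Rad51c, next to the start of Tex14, was level (log2 difference 0.01), as was Supt4a just beyond Rnf43 (0.1). Between them lie Sept4 (0.91), Mtmr4 (-0.38) and Hsf5, a heat shock factor gene whose levels were 0, 0 and 0.0486 CPM against a median of 0.327 CPM (adjusted p = 0.0757). Tex14 and Rnf43 are separated by 106898 bases. Their neighbours were looked at after the values were seen, and DNA was not measured. The neighbours Spns2 and Spns3, sphingolipid transporter family genes on the same chromosome, were both higher: Spns2 at 251, 586 and 552 CPM against at most 173 CPM, and Spns3 at 3.56, 13.6 and 10.7 CPM against at most 3.07 CPM.

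Other lower genes with full separation were Pou3f1, a POU transcription factor gene (0.871, 0.165 and 0.486 CPM against 1.01 to 31.7), and Rps6ka6, a ribosomal S6 kinase gene on the X chromosome (0.568, 2.32 and 0.729 against 3.82 to 28). Pls3, which encodes an actin-bundling plastin and is also X-linked, was the most abundant of the 12, with 32.9, 26.3 and 21.5 CPM against 97.7 to 531 CPM. Vwa2 (at most 0.189 CPM against at least 0.442), Ccdc136 (at most 0.777 against at least 1.68) and Nckap5 (at most 2.31 against at least 2.54) completed the 12. Vwa2 had 7 counts over the 3 tumors of the line, and 0.442 CPM is under the floor of C102-M30, 1.33 CPM. The plot of single genes shows all of these tumor by tumor.

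**Figure D2:**
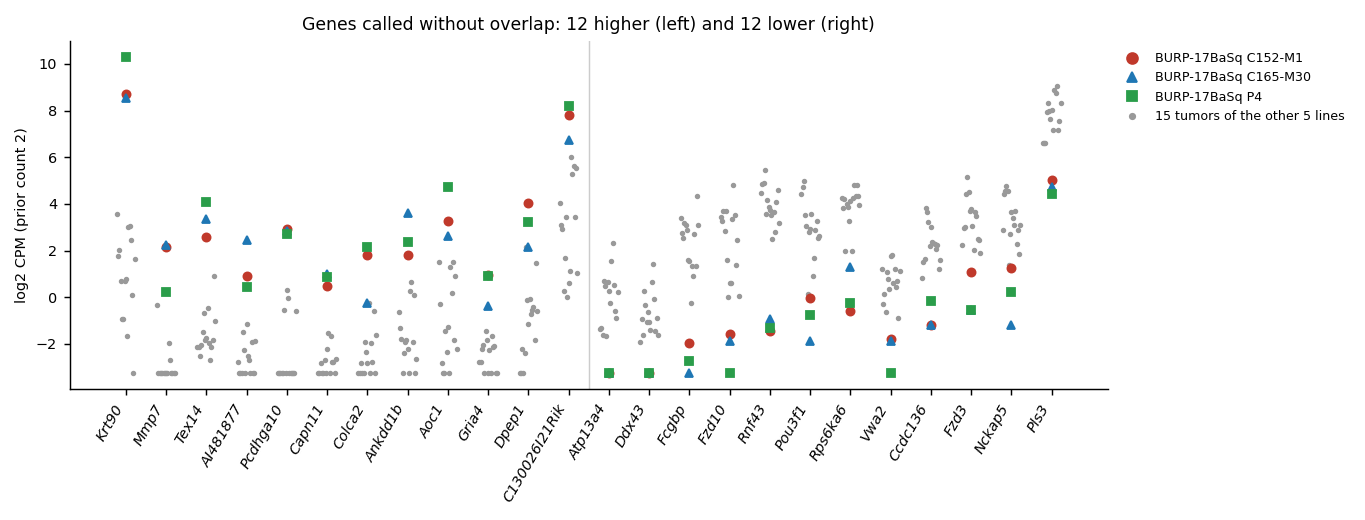
Levels of the 12 higher and 12 lower protein-coding genes with the largest differences among called genes without overlap, as log2 CPM with a prior count of 2; each point is 1 tumor. The 3 BURP-17BaSq tumors (colored) lie above the 15 others (grey) in every gene on the left and below them in every gene on the right.

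The largest decreases among called protein-coding genes whose tumors overlap were also near the floor. Foxe1, a forkhead transcription factor gene, and Lhfpl1 had 1 count each over the 3 tumors, and the other tumors had a median of 2.21 and 2.1 CPM. The counting interval of the ratio of the others to the line was 30.9 to 6811 for Foxe1 and 20.7 to 4548 for Lhfpl1. C1ql1, with 3 counts, had an interval of 4.53 to 64.3. Slc8a2, a sodium-calcium exchanger gene, had no count and was at least 1.14-fold lower than the mean of the others, some of which were also at 0. Gpc3, a glypican that binds growth factors, stood at 2.04, 0.165 and 0.534 CPM against a median of 19.9 CPM, and Lrguk at 0.151, 0.0827 and 0.146 CPM against a median of 1.44 CPM. In all 6 genes at least 1 tumor of the other lines was as low as 1 or more tumors of the line.

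Of the 3 lower genes called in every reduced fit, Ppp3cb was among the more abundant. It encodes a catalytic subunit of the phosphatase calcineurin and stood at 21.9, 9.84 and 12.5 CPM against 29.7 to 63.2 CPM (log2 difference -1.54, SE 0.24, adjusted p = 0.00399). Among the 20 higher genes, Gdpd5, a phosphodiesterase family gene, stood at 53.8, 41 and 37.5 CPM against 6.63 to 24.8 CPM. Myo5c, an unconventional myosin of epithelial secretory cells, stood at 12.1, 35.2 and 12.8 CPM against 0.384 to 5.74 CPM. Ctsc, the lysosomal protease cathepsin C, stood at 336, 394 and 283 CPM against 92.5 to 202 CPM.

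Among noncoding genes, Gm12606 (8.78, 9.59 and 8.21 CPM against at most 1.02), Gm10482 (1.44, 0.662 and 1.41 against at most 0.156) and Gm16028 (40, 14.2 and 50.6 against at most 7.22) were the highest next to Muc19. Gm16028 is annotated as antisense and lies in the Sp110 gene cluster on chromosome 1, where C130026I21Rik was called as well (226, 106 and 294 CPM against at most 63.8). Members of that cluster are near-identical and the strand setting of the counts is not given, so these 2 are uncertain as separate genes. The 4 lower noncoding genes were Gm44832, Gm35439, Gm44168 and 1810059H22Rik, all at or under 0.757 CPM in the line.

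Interferon-induced genes gave the only other called pair within a list. Mx1, an antiviral GTPase, stood at 35, 24.2 and 66.3 CPM against 0.83 to 14.5 CPM, a log2 difference of 2.73 (SE 0.5, adjusted p = 0.0118). Irf7, the regulator of type I interferon genes, stood at 159, 282 and 268 CPM against 13.2 to 110 CPM, a log2 difference of 2.27 (SE 0.49, adjusted p = 0.0256). The Mx1 call was lost without P4 and the Irf7 call without any one of the 3. The other 26 genes of the list were not called. The median log2 difference over the 28 was 0.54, with 22 above 0, beside -0.06 and 44.9% above 0 over all genes. Isg15 was at 24.5, 48.6 and 53 CPM inside a range of 3.31 to 55.6 CPM, and the summed level of the list, 1520, 1663 and 2448 CPM, also lay inside that of the others, 260 to 3230 CPM. Sp110, an interferon-induced nuclear body gene outside the list and named after its values were seen, stood at 97, 49.9 and 114 CPM against at most 44.5 CPM. It belongs to the cluster of near-identical genes named above, so its level as a separate gene is uncertain too.

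Among growth control genes Ccnd1, which encodes cyclin D1, was the 1 called member of the 28 cell cycle genes. It stood at 646, 808 and 875 CPM against a lowest, median and highest level of 141, 192 and 447 CPM (log2 difference 1.71, SE 0.29, adjusted p = 0.00667). The call was lost without P4 (adjusted p = 0.0601). The median of the list was 0.02. Of 20 tested genes for ErbB and FGF ligands and receptors, Fgfr2 was called lower, at 23.5, 35.1 and 26.3 CPM against 34.6 to 276 CPM, with C165-M30 just inside the range of the others. Egfr was at 208, 270 and 274 CPM, beside a median of 184 CPM and a highest value of 262 CPM, and was not called. Scg2, a granin gene of the neuroendocrine list, was called higher with 4.69 CPM in C152-M1 and 5.38 in C165-M30, both above the highest of the others, 0.635 CPM, while P4 had 0.146 CPM.

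The identity lists of the epithelium had no called member. Over all genes 0.76% were called higher and 0.312% lower, so lists this short would hold few or none. None of 15 basal keratinocyte genes was called (median 0.2), and Krt14 at 3047, 3309 and 4368 CPM overlapped with the other lines. Trp63, which encodes p63, was at 176, 315 and 247 CPM against 261 to 866 CPM, so that C152-M1 and P4 lay below all 15 tumors and C165-M30 inside their range (log2 difference -0.76, adjusted p = 0.225). Cd44, an adhesion receptor of basal cells, was above all 15 in all 3 tumors, at 653, 828 and 879 CPM against 393 to 632 CPM, but differed by less than 2-fold (log2 difference 0.71, adjusted p = 0.0239). None of 34 squamous differentiation genes was called. Their median was -0.98, with 11 above 0, beside -0.06 and 44.9% above 0 over all genes. Of the 34, 2 genes of the cornified layer, Sbsn and Lor, lay below all 15 tumors, as did 0.975% of all genes. Neither passed the test (Sbsn 19.2, 7.77 and 5.25 CPM against at least 22.1, adjusted p = 0.0706). None of 19 tested luminal urothelial genes was called. They went both ways, with 12 above 0, 7 below and a median of 0.12, beside 44.9% above 0 and -0.06 over all genes. Their summed level was 2479, 4901 and 3965 CPM in C152-M1, C165-M30 and P4 against 710 to 2794 CPM. C165-M30 and P4 thus lay above all 15, and C152-M1 inside their range. Averaged over genes as centred log2 CPM, the list stood at 0.53, 0.79 and 0.62, inside -1.2 to 1.29. Krt7 (458, 848 and 1407 CPM against 2.41 to 629) and Krt19 (730, 1933 and 1038 CPM against 3.14 to 1006), keratins of simple epithelium, were high in the line but also in some tumors of other lines. Foxa1 (41, 71.7 and 40.1 CPM) and Gata3 (50.7, 35.6 and 76 CPM), luminal transcription factors, lay inside the ranges of the others. In stained sections the paper reports FOXA1 and GATA3 but no TP63 in BURP-17 and BURP-24. Staining shows protein in cells, whereas the values here are RNA of bulk tumors.

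The content of other cell types differed widely among the 3 tumors. The summed level of 16 fibroblast genes was 12599, 479 and 3988 CPM in C152-M1, C165-M30 and P4 against 319 to 7356 CPM in the others, so the line held the highest of the 18 tumors and one near the lowest. None of the 16 was called, although all 16 log2 differences were above 0 (median 1.62). The 10 leukocyte genes summed to 384, 40.8 and 182 CPM against 23.2 to 344 CPM, and 10 endothelial genes to 522, 56.7 and 237 CPM against 70.7 to 241 CPM. Vim, expressed by stroma, followed with 525, 26.2 and 294 CPM. Over 9729 genes with a mean of at least 10 CPM, C152-M1 and C165-M30 differed more than 4-fold in 549, C165-M30 and P4 in 334, and C152-M1 and P4 in 120. Pairs within BURP-18BaSq (464 to 526 genes) differed as widely, and pairs within BURP-12BaSq in 22 to 51. In BURP-25BaSq the pairs with C102-M1, whose label is in doubt, differed in 585 and 485 genes, and the remaining pair in 269.

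**Figure D3:**
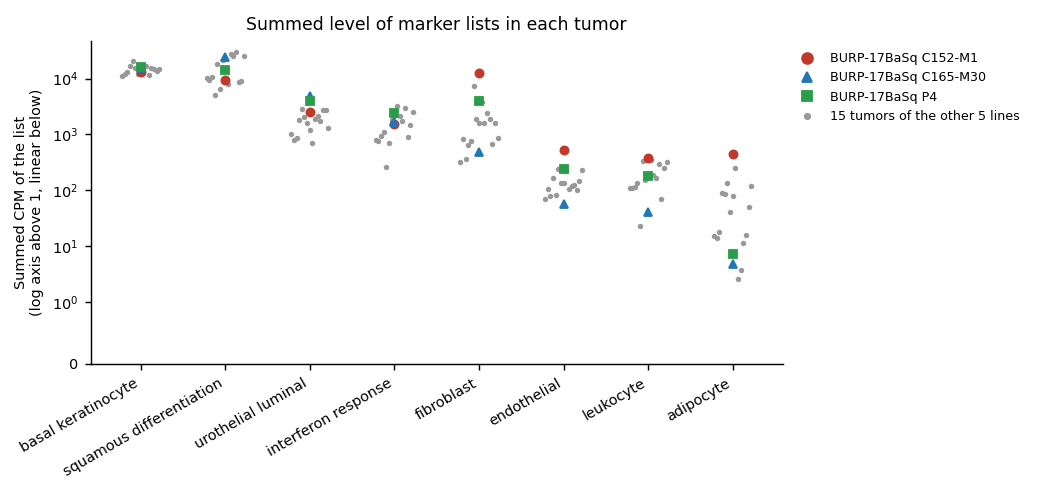
Summed CPM of 8 marker lists in each of the 18 tumors, on an axis that is logarithmic above 1. The 3 BURP-17BaSq tumors lie close together for basal genes (13351, 15410 and 15799 CPM) and far apart for fibroblast genes (12599, 479 and 3988 CPM).

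Adipocyte genes were called for the line through 1 tumor. Of 6 tested, 5 were called higher: Cfd, Adipoq, Cidec, Plin1 and Plin4. Cfd, the fat cell protease adipsin, stood at 166, 0 and 0.0972 CPM, and Adipoq, the hormone adiponectin, at 33, 0 and 0 CPM. Cidec (25.4, 0 and 0 CPM) and Plin1 (23.9, 0 and 0 CPM), which coat lipid droplets, did likewise. Without C152-M1 all 5 differences turned negative, between -1.84 and -5.22 on the log2 scale. These calls rested on C152-M1.

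The same holds for much of the set that overlaps. In 49 of the 72 higher genes with overlap C152-M1 had the highest of the 3 levels, in 52 C165-M30 had the lowest, and in 28 C152-M1 alone exceeded the 15 others. C165-M30 lay below the median of the 15 in 28 of the 72. The median difference of these 72 from the mean of the others was 3.99 in C152-M1, 0.41 in C165-M30 and 1.57 in P4 on the log2 scale. For the 84 genes without overlap it was 1.93, 1.86 and 2.04. A positive value in each tumor is fixed there, because these genes were picked for lying above the 15 in every tumor. Tnxb (612, 0.91 and 25 CPM), Pi16 (248, 0.496 and 16.6 CPM), Sfrp4 (56.2, 0.744 and 0.972 CPM) and Scara5 (42.5, 0.248 and 9.86 CPM), genes of connective tissue fibroblasts, and Hp (207, 0 and 6.27 CPM), Lbp (64.5, 0.579 and 5.2 CPM) and Lrg1 (43.4, 1.08 and 1.36 CPM), acute phase genes, showed this pattern. Sfrp4, Scara5, Lbp and Lrg1 were named after their values were seen.

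**Figure D4:**
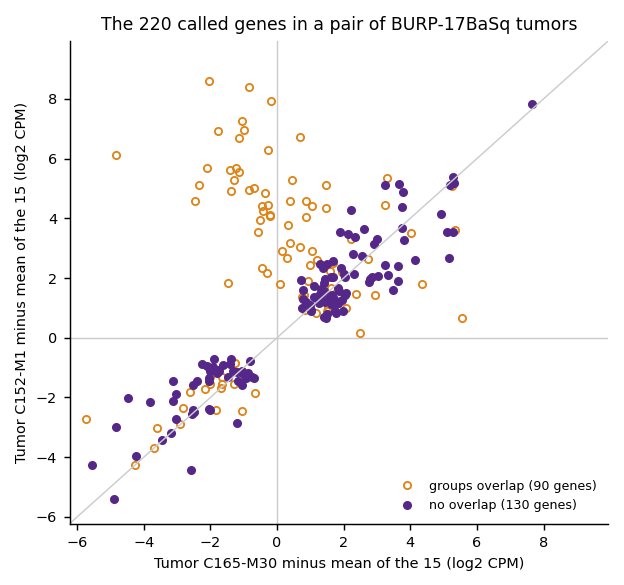
Difference of 2 BURP-17BaSq tumors from the mean of the 15 others for each of the 220 called genes, with C165-M30 on the x axis and C152-M1 on the y axis, both in log2 CPM. The 130 genes without overlap (filled) lie on the same side of 0 in both tumors, which the condition of no overlap fixes in advance. Many of the 90 with overlap (open) are high in C152-M1 only.

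With the fibroblast and leukocyte scores as covariates, 37 genes were called higher and 18 lower. Of the 84 genes, 28 remained, among them Krt90, Tex14, Muc19, Mmp7, Mx1, Irf7, Myo5c, Spns3 and Serinc3. Of the 46, 15 remained, among them Rnf43, Fcgbp, Fzd3, Pls3, Rps6ka6 and Tenm4. Of the 72 higher genes with overlap 2 remained. Ccnd1 was not among those kept, but its log2 difference was 1.52 with the covariates, beside 1.71 without them. The largest departures of single tumors, taken as description, included fat cell genes: for C152-M1 Cfd, Car3, Adipoq, Hp and Hmcn2 stood from 10.17 to 7.37 log2 units above the other 2. In C165-M30 Hp, Tnxb, Mmp3, Pi16 and Scn7a stood from -8.45 to -6.70 below. Against the mean of the other 2 tumors P4 was lower in Car3, Cfd, Adipoq and Calcb and higher in Wfdc18 by 3.85, but for Cfd and Adipoq this came from C152-M1, since C165-M30 was at 0 as well. The remaining 28 of the 34 lists had no called member, beside shares of 0.76% called higher and 0.312% called lower over all genes.

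Genes that separated all 3 tumors from all 15 were unevenly placed in the genome. Chromosomes 2 and 7 held 151 of the 284 genes above the others, 53.2%, though they hold 15% of the genes tested. On chromosome 2, 97 of 1503 genes lay above, 6.45% beside 1.38% over all genes. Of the 1503, 29 were called higher, beside 0.76% over all genes. The median difference of the 903 genes of chromosome 2 with a mean of at least 5 CPM was 0.25, 0.37 and 0.35 on the log2 scale, whereas the 15 others ran from -0.27 to 0.24. C152-M1 thus cleared the others by a narrow margin. With only the male lines as reference the medians were 0.28, 0.39 and 0.35. Other tumors then reached 0.33, so C152-M1 lay inside their range. Serinc3, a transmembrane carrier family gene (509, 382 and 533 CPM against 80.3 to 272), Ptprj, a receptor phosphatase gene (154, 178 and 145 CPM against 28.6 to 83.1) and Shf, an adaptor protein gene (37.7, 34.5 and 80.5 CPM against 3.54 to 17.1), are called genes of chromosome 2.

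On chromosome 7 the medians were 0.33, 0.38 and 0.34, and 54 genes (3.42%) lay above, but some tumors of other lines reached 0.52. Ccnd1, Irf7, Gdpd5, Ctsc and Wee1 are on this chromosome. Wee1, a brake on entry into mitosis, stood at 53, 58.1 and 70.2 CPM against 18.8 to 47 CPM. With only the male lines as reference the medians of chromosome 7 fell to 0.16, 0.22 and 0.17.

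Chromosomes 8 and X went the other way and held 57 of the 200 genes below the others, 28.5%, with 8.09% of the genes tested. The medians of chromosome X were -0.34, -0.27 and -0.36 against -0.32 to 0.25, and 29 of 609 genes lay below all others, 4.76% beside 0.975%. All 9 called genes of chromosome X, of 609 tested, were lower, beside 0.312% called lower over all genes. Among them were Pls3, Rps6ka6, Trmt2b and Brwd3. Trmt2b, a tRNA methyltransferase gene, stood at 7.57, 3.89 and 5.78 CPM against 11.5 to 19.5 CPM. Chromosome 8 had medians of -0.22, -0.23 and -0.29 inside a range of -0.36 to 0.26. With only the male lines as reference the medians of chromosome X were -0.48, -0.37 and -0.52, and the 15 others ran from -0.42 to 0.2. Those of chromosome 8 were -0.36, -0.35 and -0.42 against -0.47 to 0.09. Among the tumors of the other male lines the ranges were then -0.2 to 0.2 on chromosome X and -0.13 to 0.08 on chromosome 8. Chromosome 3 was lower in C165-M30 alone (-0.41, with -0.11 in C152-M1 and -0.1 in P4, against -0.37 to 0.28 in the other lines), and chromosome 12 in C165-M30 and P4 (-0.38 and -0.43, with -0.08 in C152-M1, inside a range of -0.69 to 0.53). The line was thus not uniform on these 2. Copy number was not measured.

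**Figure D5:**
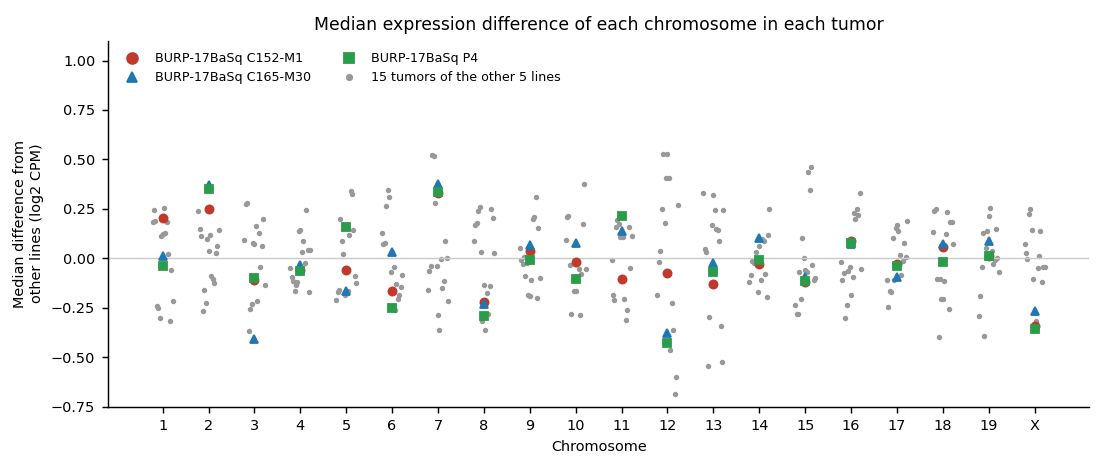
Median over the genes of each chromosome of the log2 CPM difference from the tumors of other lines, each point being 1 tumor and genes with a mean of at least 5 CPM being used. On chromosome 2 the 3 BURP-17BaSq tumors (0.25, 0.37 and 0.35) lie above the 15 others, while on chromosome 3 only C165-M30 (-0.41) is low.

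In windows of 5 Mb with at least 10 such genes, the 3 medians lay above all 15 in 13 of 403 windows, 11 of them on chromosome 2 and 2 on chromosome 7. They lay below all 15 in 5 windows, 4 on chromosome X and 1 on chromosome 9. The window on chromosome 9 from 110000001 to 115000000 had medians of -0.55, -0.85 and -0.87 over 28 genes, against -0.23 to 0.33 in the other tumors. The windows on either side were near 0 (0.01, 0.05 and 0.01 before it, and 0.09, -0.03 and 0.08 after it). Of these 28 genes 8 lay below all 15 tumors, beside 0.975% of all genes tested. The 8 were Smarcc1, Setd2, Dhx30, Lrrfip2, Pdcd6ip, Ubp1, Cnot10 and Dync1li1. Smarcc1, a subunit of SWI/SNF chromatin remodellers, stood at 63.3, 65.5 and 67.4 CPM against 82.8 to 181 CPM. Setd2, a histone H3 methyltransferase gene, stood at 107, 95.7 and 92 CPM against 128 to 222 CPM and fell short of a 2-fold difference (log2 difference -0.81, adjusted p = 0.0267). Elp6, a subunit gene of the Elongator complex in the same window but too low for the 28, was called lower at 1.4, 1.24 and 1.75 CPM against at least 2.59 CPM. Just before the window, Nme6 and Cdc25a were called lower too, Cdc25a, a phosphatase of the cell cycle, at 11.2, 17.8 and 12.4 CPM against 22.6 to 34.4 CPM. Elsewhere, 1 run of 3 neighbouring genes was called lower together: Dlk2, Abcc10 and Zfp318 on chromosome 17 from 46297421 to 46420920.

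The sex of the line was checked on the Y chromosome and on Xist, the RNA that silences an X chromosome. Ddx3y, a Y-linked helicase gene, stood at 16.8, 1.41 and 5.1 CPM in BURP-17BaSq, at 24.7 to 41.5 CPM in BURP-12BaSq and at 0.424 to 7.88 CPM in BURP-18BaSq, the other lines from males. It was at 0 in all 9 tumors of the female lines, which allows up to the floors given above. The order of Ddx3y among the 3 tumors was that of their fibroblast sums, and the part of host cells in it was not tested. Xist stood at 19.2, 15.8 and 17 CPM in BURP-17BaSq, at 0.273 to 0.764 CPM in BURP-18BaSq, at 176 to 556 CPM in BURP-12BaSq and at 187 to 3323 CPM in the female lines. Tsix, which lies antisense to Xist, was at 11.3, 7.11 and 9.77 CPM against at most 4.81 CPM (adjusted p = 0.0774), and without the strand setting the 2 cannot be fully told apart.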

How the data were processed

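RNA from 18 Ba/Sq tumors, 3 of BURP-17BaSq and 15 of 5 other lines, was analysed. The authors depleted ribosomal RNA, aligned reads to GRCm38 (STAR 2.6.0a, RSEM 1.3.1 and CASAVA 1.8.2 are in the submitters' processing notes) and deposited an unnormalized table of estimated counts with 53465 genes. RSEM divides shared reads among genes, and 12.5% of the values were not whole, so they were rounded. Names and positions came from GENCODE M21, which held 99.8% of the identifiers. Genes passing filterByExpr were fitted in edgeR 4.0.16 (R 4.3.3, TMM, glmQLFit, glmQLFTest) with limma 3.58.1 and DESeq2 1.42.0 as alternatives. The fit was tested on simulated data in which tumors of a line were independent. That test cannot show how the fit behaves where tumors of a line are alike. Groups came from the labels, and sex and subtype of each line from the study's text. Members, lists and tests were chosen with earlier results of these data known. Named were the 12 protein-coding genes without overlap and the 6 with overlap that changed most in each direction, 4 noncoding genes in each direction, called list members, 5 markers the study stained, sex-linked genes, runs of 3 neighbours, and the 5 genes setting each tumor apart. Of the stained markers, the paper describes vimentin only in BURP-16SR and BURP-19NE. Genes outside this rule were named after their values were seen: Krt42, Sp110, Spns2, Spns3, those given for single chromosomes or kept in every reduced fit, and members given as uncalled examples of lists. The chromosome filter was also chosen after seeing the data. The paper describes the 3 tumors of each line as independent, but the labels do not say whether they grew in separate hosts. The p-values set the difference between the groups against the spread among these tumors, not among lines. BURP-16SR and BURP-19NE entered only 1 alternative fit and the closing values.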

Additional observations from a re-analysis of the deposited data

Results flagged for a closer look

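The 6 tumors of BURP-16SR and BURP-19NE, lines of other subtypes, took no part in the comparison. Of the 12 protein-coding genes that were highest without overlap in BURP-17BaSq, 2 stood above all 15 other Ba/Sq tumors in all 3 tumors of BURP-16SR. Scaled over all 24 tumors, Colca2 was at 0.857 CPM or more there against at most 0.742 CPM. Ankdd1b was at 2.65 CPM or more against at most 1.48 CPM. Some BURP-16SR tumors also exceeded the 15 in Pcdhga10 (5.43, 6.46 and 0.991 CPM against at most 1.15) and Dpep1 (8.97, 10.8 and 0.0708 against at most 4.39). The same held for Gria4 (0.776, 1.09 and 0.212 against at most 0.268) and Capn11 (0, 0.545 and 0 against at most 0.247). In BURP-19NE only Gria4 did so (0.0425, 0.319 and 0.321 CPM). The other genes of the 12 did not. The share of all genes with such levels was not counted. These values were not tested.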

How the results depend on the processing

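The number of genes called higher, 156, became 244 with limma-voom, 57 with at least 10 counts in every tumor, 939 with 1 coefficient per line, 1077 with that over all 24 tumors, 0 with counts summed per line with or without C102-M1, 12 with the line as a random effect (7 without C102-M1, a fit added after seeing the data), 290 with male lines only, 480 with sex as a covariate, 37 with fibroblast and leukocyte scores as covariates, and 241 with no threshold on the fold change. It became 65, 312 and 70 without BURP-12BaSq, BURP-18BaSq and BURP-21BaSq. The number called lower, 64, became 375 with DESeq2, 329 and 389 with 1 coefficient per line in 18 and 24 tumors, 0 with counts summed per line and with the random effect, each with and without C102-M1, 175 with male lines, 346 with sex, and 18 with the scores. Without the same 3 lines it became 31, 193 and 29. Of genes without overlap, the 84 higher became 42 with at least 10 counts, and 55 and 155 without BURP-12BaSq and BURP-18BaSq. The 46 lower became 28, 155, 27 and 71 without BURP-12BaSq, BURP-18BaSq, BURP-21BaSq and BURP-24BaSq. Leaving out 1 tumor at a time gave 50 to 206 higher, 4 to 83 lower, 32 to 104 higher without overlap and 4 to 70 lower without overlap. The lowest lower counts came without P4, and the 70 without C102-M30. Apart from settings with fewer samples or genes, the cause of these changes was not tested.

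Over the fits with 1 tumor left out, each lowest value being that without C152-M1, where the sign turned, the log2 fold change of Cfd ran from -4.06 to 6.56, the log2 fold change of Adipoq ran from -5.22 to 6.49, the log2 fold change of Cidec ran from -4.90 to 6.03, the log2 fold change of Plin1 ran from -5.11 to 5.72, the log2 fold change of Plin4 ran from -1.84 to 3.7, the log2 fold change of Car3 ran from -2.68 to 5.67, the log2 fold change of Hp ran from -0.53 to 4.54, the log2 fold change of Hmcn2 ran from -2.27 to 4.44. With 1 coefficient per line in 18 and 24 tumors the sign turned for the log2 fold change of Eif2s3y (5.07 and 5.05), the log2 fold change of Uty (4.52 and 4.5), the log2 fold change of Kdm5d (4.46 and 4.45), the log2 fold change of Ddx3y (5.93 and 5.91). DESeq2's size factors gave 151 and 65 calls. No paired analysis was possible because replicate numbers were given in accession order only. Low-count genes are limited by the depth of C165-M30 and C102-M30.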
